A study of Caenorhabditis elegans with 8 samples.

Results

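A group of 10 small heat shock protein genes of the nematode Caenorhabditis elegans was followed in 8 whole-worm RNA-seq libraries. They are hsp-43, hsp-25, hsp-17, hsp-12.1, hsp-12.2, hsp-12.3, hsp-12.6, hsp-16.2, hsp-16.48 and sip-1, taken by name as listed genes of the alpha-crystallin family. All 10 had a row in the deposited table of 46093 genes. Wild type (strain N2) and atf-6 worms gave 4 libraries each, in a study whose title concerns longevity and the transfer of calcium from the endoplasmic reticulum (ER) to mitochondria. Animals of both kinds were day 1 adults kept at 20 °C on OP50-1 bacteria and harvested 72 h after feeding began at the first larval stage, about 1000 worms per replicate, and no heat or drug treatment is named. The labels give no allele for the atf-6 strain, no outcross and no further genotype, and they call the 4 replicates independent.

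Small heat shock proteins are ATP-independent chaperones that share the alpha-crystallin domain. They form oligomers and hold unfolding proteins in a soluble state until ATP-driven chaperones such as Hsp70 refold them. In worms, the transcription factors HSF-1 and DAF-16 raise several of them under heat shock or low insulin signalling, and the hsp-16 genes are the classical heat-induced members, close to silent in unstressed animals. ATF-6 is an ER-membrane transcription factor of the unfolded protein response, a pathway separate from this cytosolic one.

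One of the 10 genes, hsp-43, differed between the strains after adjustment over all genes, and it was 1.25-fold higher in atf-6. The abundant members sip-1, hsp-25 and hsp-12.2 varied more in CPM between libraries of 1 strain than between the strains. In CPM, the libraries highest for hsp-25 and hsp-12.2 were also the highest for some tissue markers, an order that no listed marker showed in TPM. The heat-inducible hsp-16.48 was far above its usual level in a single atf-6 library.

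The libraries held 12664222 to 21698298 estimated counts each. The atf-6 transcript was at 10.8 to 13.2 CPM (counts per 1e6 of the library size after TMM scaling) in the wild-type libraries and at 14.1 to 16.04 CPM in those labelled atf-6, so it was not lower there and gives no check of the label (log2 fold change 0.28, edgeR adjusted p = 0.346). Of marker lists for 5 tissues, sperm markers stood apart, with 14 of 17 tested genes called higher in atf-6, beside 0.711% of all tested genes (msp-19, msp-31, msp-38, msp-40, msp-55, msp-57, msp-59, msp-77, msp-78, spe-11, ssp-16, ssp-31, sss-1 and msd-2) and a summed abundance of 131.1 to 189 TPM (transcripts per 1e6, scaled for length) in wild type and 296 to 396 TPM in atf-6. No oocyte and embryo, body wall muscle, epidermis or intestine marker passed edgeR's test over all genes (0 of 14, 14, 10 and 13 tested, with 1 gene in each list at an unadjusted p under 0.05), beside 0.816% and 7% of all tested genes, so counts of 0 in lists this short say little. The smallest adjusted p-values there belonged to egg-2, puf-5 and egg-1, to myo-3, mup-2 and unc-97, to mup-4, let-805 and bli-1, and to cpr-1, elt-2 and elo-2. Their log2 fold changes ran from -0.89 for bli-1 to 0.24 for myo-3. The msp genes are near-identical copies, so their counts are uncertain one by one, and the lists were chosen with earlier results of these data known. 1 of the 18 sperm markers, spe-9, was at 0 in a library and was not tested. Fitted without the low-count filter, its log2 fold change was -0.95 (edgeR adjusted p = 0.7695), the other way from the called sperm markers. The part of sperm content in the results on the family was not tested. In whole-worm RNA, fewer cells of a type and less RNA per cell cannot be told apart.

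Scaled for transcript length, the 10 genes spanned a wide range, and sip-1 made up most of the family's RNA. SIP-1 is a small heat shock protein of oocytes and embryos. Its gene (WBGene00004798, chromosome III, 10506106 to 10506801, minus strand, build WBcel235) averaged 1133 TPM over the 8 libraries, rank 126 of 45848 genes by mean TPM, and held 82.7% to 86.9% of the summed TPM of the 10 genes. hsp-25 followed at 66.1 to 86.4 TPM and hsp-12.2 at 41.5 to 54.9 TPM, and these ranges did not overlap each other. hsp-43 (20.9 to 33.7 TPM) and hsp-17 (23.5 to 32.2 TPM) lay within each other's spread. Below them, hsp-16.48 ranged from 1.33 to 19.75 TPM, hsp-12.3 from 3.54 to 6.22 TPM, hsp-12.1 from 1.38 to 4.44 TPM and hsp-12.6 from 2.41 to 3.59 TPM, all overlapping. hsp-16.2 had the lowest mean, with 0.306 to 1.96 TPM, and overlapped hsp-16.48 and hsp-12.1.

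**Figure D1:**
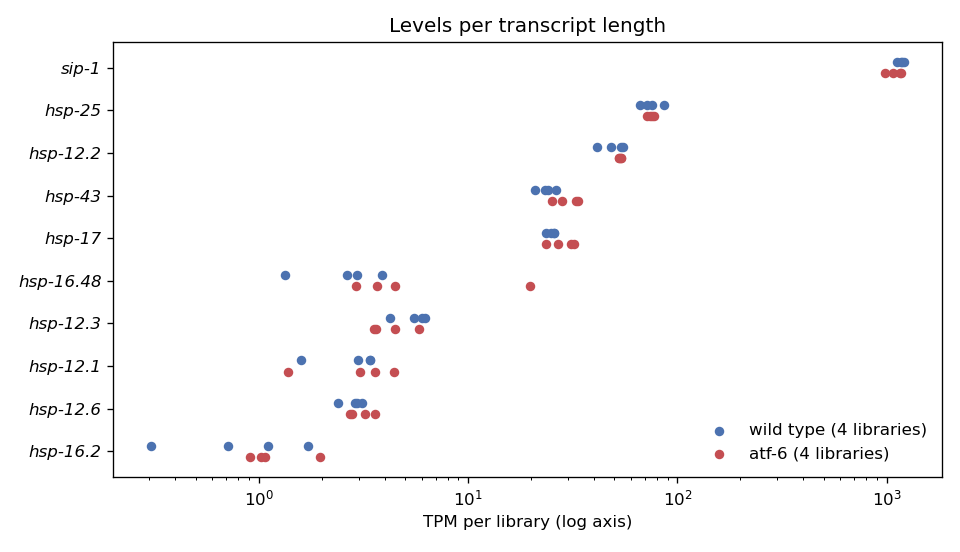
TPM of each of the 10 genes (log axis, 1 point per library, blue for wild type and red for atf-6), ordered by the mean over 8 libraries. sip-1 lies at 978 to 1215 TPM, far right of the other 9 genes, and 1 red point of hsp-16.48 lies at 19.75 TPM.

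Of the 10 genes, 9 passed the filter on low counts and entered the test. 1 rose, 0 fell and 8 did not pass, while 0.711% of the 12375 tested genes were called higher and 0.105% lower (0.816% in either direction). DESeq2 also called 1 of the 10, hsp-43, beside 0.877% of the 21324 genes to which it gave a p-value. Some of those genes got no adjusted p and could not be called. 2 of the 9 had an unadjusted p under 0.05, a level reached by 7% of all tested genes. The median log2 fold change of the 9 was 0.07, beside 0.00 for all tested genes, and 6 of the 9 were positive, beside 50.7% of all tested genes. hsp-43 and hsp-17 were the 2 members whose groups did not overlap in CPM, both higher in atf-6, beside 5.79% of all tested genes with separate groups and 3.77% with the atf-6 libraries above.

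**Figure D2:**
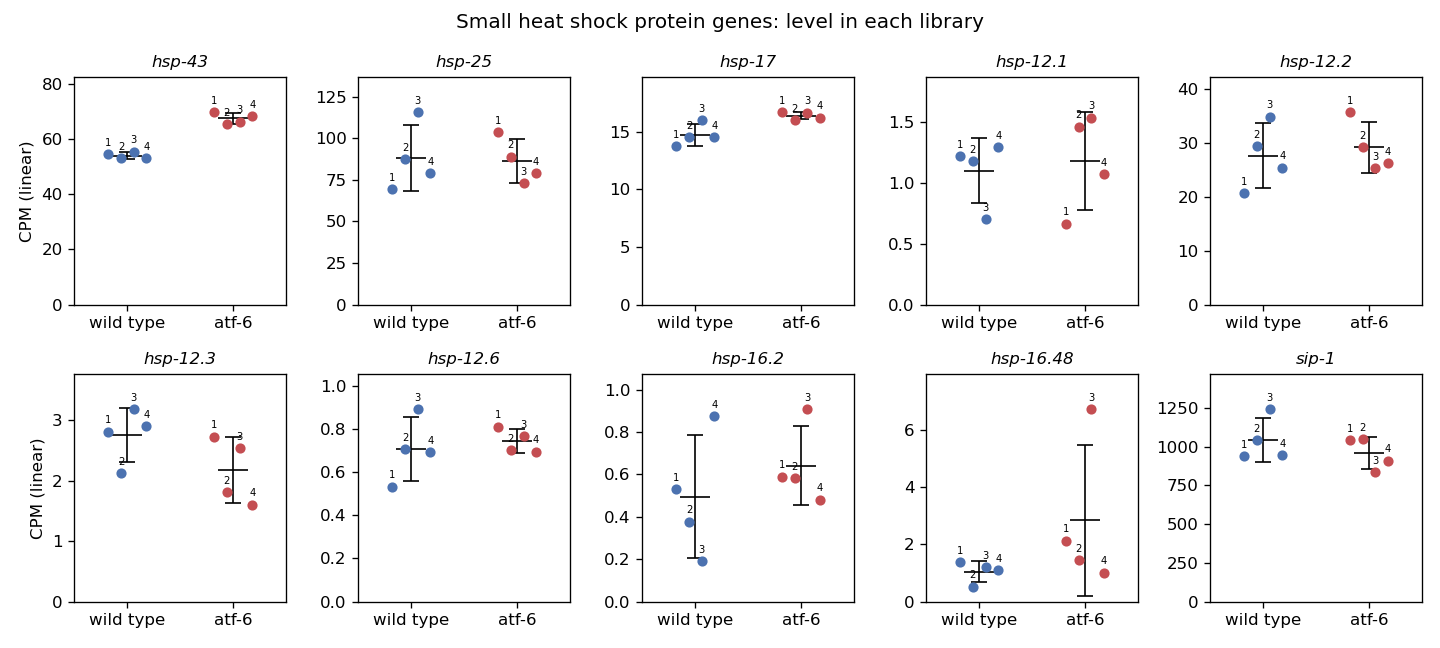
CPM of each of the 10 genes in the 4 wild-type and 4 atf-6 libraries (linear axes from 0, numbers are replicates, bars show mean and SD). The hsp-43 points form 2 separate tight clusters at 52.9 to 55.4 and 65.4 to 69.8 CPM, whereas the points of hsp-25, hsp-12.2 and sip-1 overlap widely.

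HSP-43 is a small heat shock protein found in cells of the vulva and spermatheca, and its gene is not one of those that heat induces. Its gene (WBGene00002024, protein-coding, chromosome X, 6233151 to 6235543, minus strand, up to 7 exons, no overlapping gene in the annotation) measured 54.4, 53.05, 55.4 and 52.9 CPM across wild-type replicates 1 to 4. Across the atf-6 replicates it measured 69.8, 65.4, 66.2 and 68.25 CPM. Each atf-6 library lay above each wild-type library, and the spread within a strain was small, with coefficients of variation of 2.16% and 2.94%. Wild type averaged 53.95 ± 1.16 CPM and atf-6 67.4 ± 1.98 CPM (SD, n = 4). This gave a log2 fold change of 0.32 (SE 0.0548, 95% interval 0.20 to 0.44, edgeR quasi-likelihood adjusted p = 0.0327). Among all tested genes, 12.34% had a log2 fold change at least that far from 0.

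The hsp-43 call did not hold in all fits. When 1 library was left out it passed only without wild-type replicate 3, with adjusted p from 0.0295 to 0.149 and log2 fold changes from 0.31 to 0.33. In TPM, a comparison added after seeing the data, the groups overlapped: wild-type replicate 1 was at 26.2 TPM and atf-6 replicate 1 at 25.3 TPM. The log2 ratio of mean TPM was 0.34 (n = 4). For the difference of mean TPM, the two-sided exact permutation p was 0.0571, where 0.0286 is the smallest that 4 against 4 allows.

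The files give 2 transcripts of hsp-43. The a form held most of the gene's TPM in every library, and the b form held 9.18%, 4.002%, 2.12% and 4.63% across wild-type replicates 1 to 4, against 3.29%, 3.31%, 1.85% and 2.18% across the atf-6 replicates. The groups overlapped, and the mean share of 4.99% ± 2.99 in wild type and 2.66% ± 0.754 in atf-6 did not differ beyond this spread (SD, n = 4; two-sided exact permutation p = 0.143, or 0.429 when adjusted over the 6 transcript shares tested). At 4 against 4, a single share could not have passed that adjustment. The a form itself averaged 22.4 ± 1.44 TPM in wild type and 29.2 ± 4.09 TPM in atf-6, and the b form 1.23 ± 0.838 and 0.777 ± 0.138 TPM.

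The genes whose pattern over the 8 libraries was most like that of hsp-43 were chosen among 9900 genes outside the lists, by the mean absolute difference of centred log2 CPM. They were gale-1 (difference 0.0323), a gene of a UDP-galactose epimerase, dnj-7 (0.0476), an ER DnaJ cochaperone gene, lam-2 (0.0491), which encodes the laminin gamma chain of basement membranes, jmjd-3.1 (0.0517), which encodes a histone demethylase, and F53F8.4 (0.0522). Their log2 fold changes lay between 0.25 and 0.36, and lam-2 passed edgeR's test (adjusted p = 0.0253). Likeness here was measured over the same 8 libraries as the strain difference and is a description.

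hsp-17 (WBGene00002021, chromosome V, 8384799 to 8385929, minus strand, overlapped on the other strand by F52E1.14) came nearest to hsp-43 among the members, with a mean absolute difference of 0.0874. The wild-type libraries measured 13.7, 14.5, 15.99 and 14.5 CPM, and the atf-6 libraries 16.7, 16.03, 16.65 and 16.22 CPM. The lowest atf-6 library was just above the highest wild-type library. The coefficients of variation were 6.38% and 2.01%. The log2 fold change of 0.16 (SE 0.0790, 95% interval -0.02 to 0.33) did not pass (edgeR adjusted p = 0.793). In TPM its groups overlapped, at 23.5 to 25.9 and 23.6 to 32.2 TPM. Its a form held 22.2% to 46.04% of the gene's TPM over the 8 libraries, and the mean share was 33.4% ± 9.98 in wild type and 34.3% ± 7.61 in atf-6 (SD, n = 4; two-sided exact permutation p = 0.857).

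**Figure D3:**
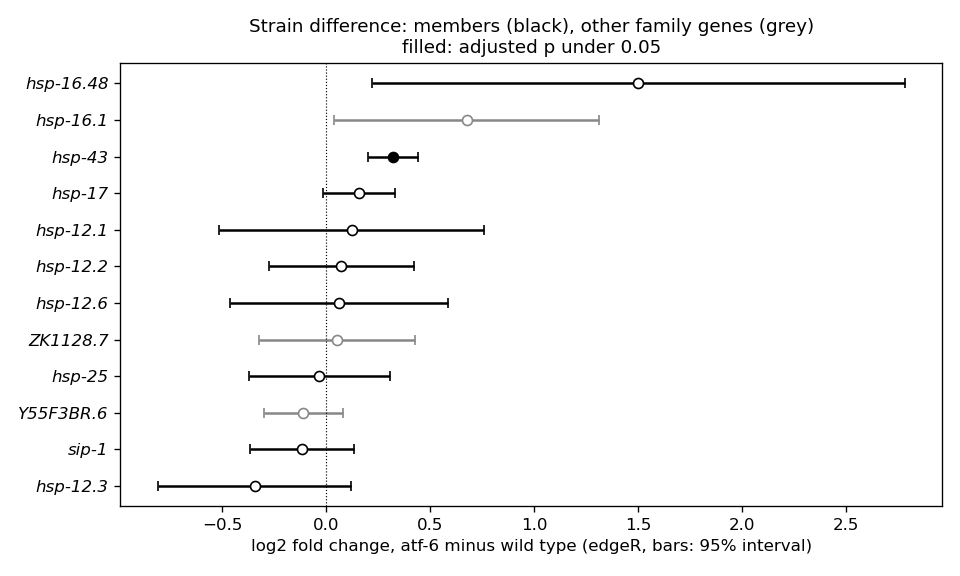
Log2 fold change of atf-6 minus wild type for the 9 tested members (black) and the 3 tested further family genes (grey), with 95% intervals from edgeR that are not adjusted for the number of genes. The filled point, hsp-43, is the one that passed over all genes, at 0.32, and hsp-16.48 has the widest interval, from 0.22 to 2.78.

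The members of muscle and germline, hsp-25 and sip-1, spread widely in CPM from library to library, and their groups overlapped. HSP-25 is a constitutive protein of muscle attachment sites and the pharynx lining. Its gene (WBGene00002023, chromosome X, 6034463 to 6039644, minus strand, overlapped on the other strand by ipp-5 and C09B8.10) measured 69.6, 87.4, 116.0 and 79.2 CPM across wild-type replicates 1 to 4 and 103.6, 88.95, 73.15 and 79.2 CPM across those of atf-6. Wild-type replicate 3 and atf-6 replicate 1 were the highest libraries, wild-type replicate 1 and atf-6 replicate 3 the lowest, and the groups overlapped. The log2 fold change was -0.03 (SE 0.153, 95% interval -0.37 to 0.31, edgeR adjusted p = 0.981). The sign of this value changed with the library left out. Some tissue markers had the same 2 highest libraries in CPM. Of 14 body wall muscle markers, 9 had their 2 highest CPM values in wild-type replicate 3 and atf-6 replicate 1. The same held for 5 of 14 oocyte and embryo, 6 of 12 epidermis, 4 of 13 intestine and 0 of 18 sperm markers. The share of all tested genes with that pair highest was not counted. The summed muscle markers reached 7299 and 7092 CPM in those libraries, against 5081 CPM in wild-type replicate 1 and 5506 CPM in atf-6 replicate 3. In TPM, 0 markers of these 5 lists had that pair highest, and the summed muscle markers lay at 1362 to 1544 TPM over the 8 libraries. hsp-25 itself had 66.1, 75.7, 86.4 and 71.4 TPM for wild-type replicates 1 to 4 and 73.95, 75.5, 71.7 and 77.04 TPM for those of atf-6, so atf-6 replicate 1 was not among its 2 highest libraries on that scale. The part of this library order in the member values was not tested. Of its 3 transcripts in the files, the c form held 59.9% to 78.98% of the TPM, the b form 20.4% to 39.3% and the a form 0.382% to 2.82%, and none of the shares differed between the strains beyond their spread (lowest exact permutation p = 0.114, two-sided, for the a form).

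hsp-12.2 (WBGene00002011, chromosome III, 8138077 to 8139631, plus strand, overlapped on the other strand by C14B9.8) belongs to the short HSP-12 class, whose members have little beyond the alpha-crystallin domain and form small assemblies. The values were 20.65, 29.4, 34.8 and 25.3 CPM for wild-type replicates 1 to 4 and 35.7, 29.2, 25.3 and 26.2 CPM for those of atf-6. In CPM, the same libraries as for hsp-25 were the 2 highest, and the groups overlapped. In TPM the values were nearly level, at 52.5 to 54.9 TPM in 6 libraries, 48.35 TPM in wild-type replicate 4 and 41.5 TPM in wild-type replicate 1. Its log2 fold change was 0.07 (SE 0.158, 95% interval -0.28 to 0.42, edgeR adjusted p = 0.954). On the CPM scale, hsp-25 and hsp-12.2 were the most alike pair of members over the 8 libraries, with a mean absolute difference of centred log2 CPM of 0.0664.

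sip-1 followed a similar order in CPM, with 938, 1042, 1245 and 946 CPM for wild-type replicates 1 to 4 and 1044, 1051, 835 and 911 CPM for those of atf-6. In CPM, wild-type replicate 3 was again highest and atf-6 replicate 3 lowest. The order changed with the scale, since in TPM atf-6 replicate 1 was lowest at 978 TPM and atf-6 replicate 3 next at 1072 TPM. The means were 1043 ± 143 and 960.2 ± 105.6 CPM (SD, n = 4), and the log2 fold change of -0.12 (SE 0.113, 95% interval -0.37 to 0.13) did not pass (edgeR adjusted p = 0.915). As a fold, this interval ran from 0.775 to 1.095. F43D9.8 overlaps sip-1 on the other strand. Summed oocyte and embryo markers were at 3460 to 3821 TPM in wild type and 3138 to 3821 TPM in atf-6, and sip-1 itself at 1117 to 1215 and 978 to 1169 TPM; the part of germline content in the sip-1 level was not tested.

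**Figure D4:**
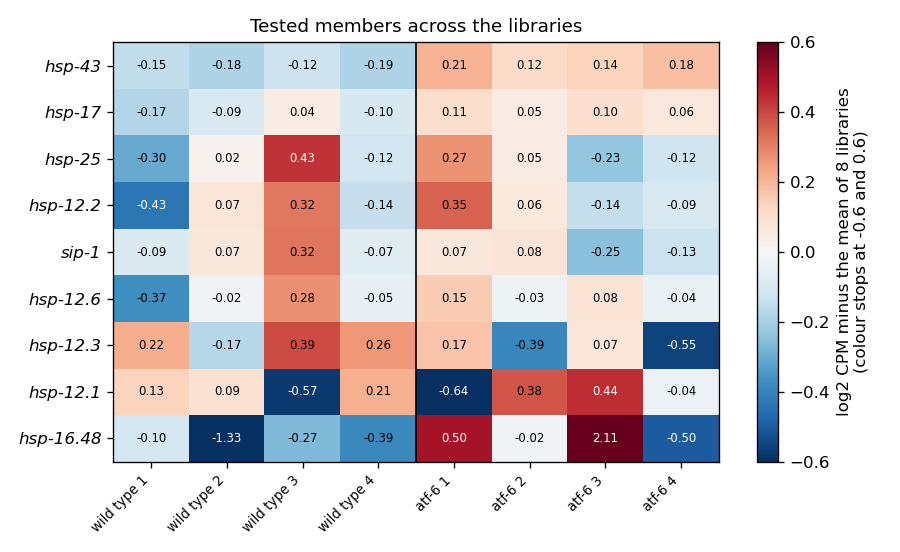
Log2 CPM (prior count 2) of the 9 tested members in each library, minus the mean of that gene over the 8 libraries; colours stop at -0.6 and 0.6, numbers give the full value. hsp-43 is negative in the 4 wild-type and positive in the 4 atf-6 libraries, and hsp-16.48 reaches 2.11 in atf-6 replicate 3. On this scale 4 of the 9 members, hsp-25 and sip-1 among them, are highest in wild-type replicate 3. Another 3, hsp-43, hsp-17 and hsp-12.2, are highest in atf-6 replicate 1.

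The other HSP-12 genes were low. hsp-12.6 (WBGene00002013, chromosome IV, 9446229 to 9447228) is a target of DAF-16 that contributes to the long life of insulin receptor mutants. It had 7, 15, 14 and 15 counts in wild type and 11, 12, 16 and 13 counts in atf-6, or 0.705 ± 0.147 and 0.742 ± 0.0556 CPM (SD, n = 4). The groups overlapped, its log2 fold change being 0.06 (SE 0.238, 95% interval -0.46 to 0.59, edgeR adjusted p = 0.982), and the interval of the fold ran from 0.725 to 1.501. Its neighbour hsp-12.3 (WBGene00002012), 721 bases away on the same strand, had 37, 45, 50 and 63 counts in the wild-type libraries and 37, 31, 53 and 30 counts in the atf-6 libraries, or 2.75 ± 0.453 and 2.17 ± 0.546 CPM (SD, n = 4). The groups overlapped, and the log2 value of atf-6 minus wild type, -0.35 (SE 0.211), was the lowest of the members and did not pass (edgeR adjusted p = 0.857). hsp-12.1 (WBGene00011906, chromosome I, 10581538 to 10582615) had 16, 25, 11 and 28 counts in wild type and 9, 25, 32 and 20 in atf-6, and its log2 fold change was 0.12 (SE 0.288; edgeR adjusted p = 0.958). All reads of hsp-12.1 were given to its b transcript in wild-type replicate 3 and to its a transcript in the other 7 libraries. Wild-type replicate 3 held 11 counts of it.

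hsp-16.48 was present at a low level in 7 libraries and stood out in 1. The gene (WBGene00002019, chromosome V, 9088131 to 9088617, plus strand) had 18, 11, 19 and 24 counts in wild-type replicates 1 to 4, against 29, 25, 141 and 19 counts in those of atf-6. In CPM, wild type ranged from 0.518 to 1.37, and the atf-6 libraries had 2.13, 1.46, 6.75 and 1.01. atf-6 replicate 3 was 5.57-fold above the median of the other 7 libraries and 3.16-fold above the highest of them, and its exact Poisson 95% interval of 5.68 to 7.96 CPM lay above those of all the others, the highest of which ended at 3.07 CPM. These intervals cover counting error only. The means were 1.05 ± 0.371 and 2.84 ± 2.65 CPM (SD, n = 4), and the groups overlapped. The log2 fold change of 1.501 (SE 0.580) had an unadjusted p of 0.0259 and did not pass over all genes (edgeR adjusted p = 0.554). Without atf-6 replicate 3 the log2 fold change was 0.55 (SE 0.358, edgeR adjusted p = 0.9995), and the other 3 atf-6 libraries averaged 1.54 ± 0.564 CPM (SD, n = 3). The annotation gives a second locus, hsp-16.49, of the same length on the opposite strand, which has no row among the deposited counts. Whether its reads were counted with hsp-16.48 is not stated.

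**Figure D5:**
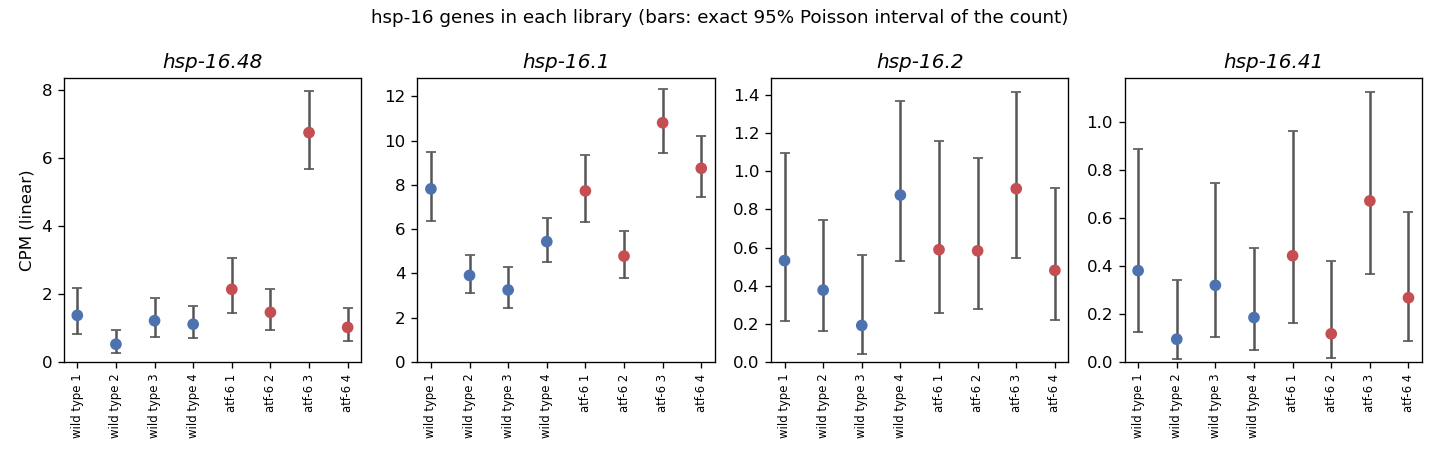
CPM of 4 hsp-16 genes in each library (linear axes from 0, blue for wild type, red for atf-6, bars are exact 95% Poisson intervals of the count). atf-6 replicate 3 has the highest value in each panel, at 6.75 CPM for hsp-16.48, 10.8 CPM for hsp-16.1, 0.909 CPM for hsp-16.2 and 0.670 CPM for hsp-16.41, with intervals that overlap other libraries in the last 3.

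hsp-16.2 (WBGene00002016, chromosome V, 1804334 to 1804957, minus strand), whose promoter is widely used as a heat shock reporter, was the member that did not pass the filter on low counts. It had 7, 8, 3 and 19 counts in wild type and 8, 10, 19 and 9 counts in atf-6, or 0.494 ± 0.290 and 0.640 ± 0.186 CPM (SD, n = 4). Wild-type replicate 4 and atf-6 replicate 3 were highest, and the groups overlapped. Fitted without the filter, its log2 fold change was 0.34 (SE 0.409; edgeR adjusted p = 0.852). hsp-16.41, 220 bases away and divergently transcribed from the same intergenic region, had 5, 2, 5 and 4 counts in wild type and 6, 2, 14 and 5 in atf-6, again with the highest count in atf-6 replicate 3.

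hsp-16.1 (WBGene00002015), 348 bases from hsp-16.48 and divergent from it, had the most counts of the hsp-16 genes, with 7.82, 3.91, 3.25 and 5.44 CPM for wild-type replicates 1 to 4 and 7.73, 4.78, 10.8 and 8.75 CPM for those of atf-6. atf-6 replicates 3 and 4 were highest and the groups overlapped. Its log2 fold change of 0.68 (SE 0.289) had an unadjusted p of 0.0403 and did not pass (edgeR adjusted p = 0.662). Its near-identical copy hsp-16.11 had 6 counts in each of atf-6 replicates 3 and 4 and 0 in the other 6 libraries, where a count of 0 allows up to 3 counts per library (0.138 to 0.228 CPM). Because reads of such copies are divided by the quantifier, both were summed, giving 5.10 ± 2.03 CPM for wild type and 8.17 ± 2.65 CPM for atf-6 (SD, n = 4; two-sided exact permutation p = 0.143). The ratio of hsp-16.48 to hsp-16.1 counts was 0.624 in atf-6 replicate 3 and 0.116 to 0.372 in the other 7 libraries; this ratio was not tested.

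Other inducible heat shock genes were not highest in atf-6 replicate 3. hsp-70, a strongly heat-induced cytosolic Hsp70 gene, was at 2.97 CPM there and at 1.88 to 4.26 CPM in the other 7 libraries. F44E5.4 and F44E5.5, a pair of near-identical Hsp70 genes between which reads are uncertain, were at 16.3 and 19.6 CPM there, within the ranges of 11.9 to 27.2 and 14.4 to 34.09 CPM in the others. hsp-1, the constitutive Hsc70, was at 3581 CPM there, below its range of 3844 to 5099 CPM in the others. In TPM it was not lowest there, at 970.6 TPM against 945.5 TPM in atf-6 replicate 1. These 4 genes were set beside hsp-16.48 after its values were seen.

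Of the 8 further alpha-crystallin genes listed, 7 had a row and 3 passed the filter, hsp-16.1, ZK1128.7 and Y55F3BR.6. 0 of the 3 passed edgeR's test, with 1 (hsp-16.1) at an unadjusted p under 0.05 and 0 with DESeq2. ZK1128.7 was at 6.34 ± 0.843 CPM for wild type and 6.66 ± 1.58 CPM for atf-6, and Y55F3BR.6 at 24.9 ± 1.61 and 23.06 ± 1.96 CPM (SD, n = 4), with log2 fold changes of 0.05 (SE 0.170) and -0.11 (SE 0.0857). F08H9.3 had 0 to 2 counts per library and F08H9.4 had 0 to 6, too few to compare the strains.

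Genes of the heat shock response were set beside the family. Of 21 tested genes of HSF-1, its regulators and the cytosolic chaperones, 0 passed edgeR's test over all genes (1 at an unadjusted p under 0.05, 0 with DESeq2), with a median log2 fold change of -0.06. At 0.816% of all tested genes called and 7% at an unadjusted p under 0.05, a list of this size would rarely hold a called gene, so the 0 says little. The smallest p-values in the list belonged to ddl-1, hsp-110 and hsp-70. DDL-1 binds and holds back HSF-1. ddl-1 lay at 20.15 to 20.5 CPM in the wild-type libraries and had 20.09, 17.5, 15.4 and 17.6 CPM in those of atf-6, so the groups were separate by a narrow margin (log2 fold change -0.21, SE 0.0889, edgeR adjusted p = 0.668). Groups were separate in 2 of the 21 genes, ddl-1 and hsp-110, both lower in atf-6. Over all tested genes, 5.79% had separate groups and 2.02% had them with atf-6 lower. hsp-110, the Hsp70 nucleotide exchange factor, had a strain difference of -0.10 in log2 (SE 0.0649), and hsp-70 one of 0.35 (SE 0.252), neither past the threshold. hsf-1 itself, named beyond the rule, lay at 104.5 to 127.1 CPM over the 8 libraries and its log2 fold change was -0.05 (SE 0.0646; edgeR adjusted p = 0.933).

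Among 13 tested genes of the insulin pathway and its transcription factors, which act on hsp-12.6 and the hsp-16 genes, 0 passed (0 at an unadjusted p under 0.05, 0 with DESeq2), with a median log2 fold change of -0.04, beside the same 0.816% and 7% over all tested genes. age-1, the phosphatidylinositol 3-kinase, differed by -0.14 in log2 (SE 0.0629), pdk-1, a kinase below it, by 0.20 (SE 0.101), and smk-1, a DAF-16 cofactor, by -0.08 (SE 0.0506). Groups were separate in CPM for 2 of the 13, age-1 and smk-1, both lower in atf-6. Among all tested genes, 5.79% had separate groups and 2.02% had atf-6 lower. Both margins were narrow, with highest atf-6 and lowest wild-type values of 91.62 and 91.97 CPM for age-1. For smk-1 they were 216.4 and 217.8 CPM. daf-16, named beyond the rule, lay at 139.9 to 147.1 CPM in all 8 libraries, and its log2 fold change was 0.03 (SE 0.0480; edgeR adjusted p = 0.942).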

How the data were processed

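Poly(A) RNA of whole worms was made into stranded TruSeq libraries and sequenced over 75 cycles, per the labels' protocols; STAR 2.5.3a, Salmon 0.9.1, DESeq2 1.19.51 and build WBcel235 come from the submitters' processing notes, which assign them no step. The sources used here do not say if strand was used in counting. The authors deposited estimated counts per gene in whole numbers, a second table equal to them divided by 1 size factor per library (normalized signal, used to check this), and, per the file headers, TPM, estimated reads and effective length (other values, not used in the edgeR fit reported) for 58105 transcripts per library. The TPM entered the exact permutation tests of members and of transcript shares. The estimated reads entered only alternatives to the reported tests. Columns were tied to samples through the library number in each sample's own file. Symbols came from a gene name table, positions from Ensembl release 115 (WBcel235); hsp-16.11 and hsp-16.49 were named from RefSeq at the same coordinates.

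The test was edgeR 4.0.16 under R 4.3.3 (TMM, filterByExpr, robust quasi-likelihood, strain as the factor, two-sided, Benjamini-Hochberg over 12375 genes, threshold 0.05). A positive log2 fold change means higher in atf-6, SE is the absolute log2 fold change over the square root of F, and 95% intervals use the fit's degrees of freedom. All 12 pairs of replicates differed by more than sampling noise (chi-square over degrees of freedom at least 3.72). The edgeR p-values set the strain difference against the spread between these 8 samples, with the estimate for each gene drawn toward that of other tested genes. Permutation p-values compare the observed split of the libraries with all other splits of them. Members, lists and the naming rule (all members and family genes; from other lists, genes past the threshold, or up to the 3 with the smallest adjusted p; for hsp-43, the 5 most alike genes of mean log2 CPM at least 1) were chosen with earlier results of these data known. Alternatives used RLE and upper-quartile scaling, other filters, DESeq2 1.42.0, limma-voom 3.58.1, a replicate block, transcript read sums, sva 3.50.0, a threshold of 0.01 and leaving out libraries.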

Additional observations from a re-analysis of the deposited data

Results flagged for a closer look

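In groups of 4, chance alone sets about 1 sample apart in 5% of groups by the gap rule used here. By this rule, the gap to the nearest sample, as a share of the group's range, must pass the Dixon critical value for 4 samples. Of 64 groups checked, 5 had such a sample. F08H9.3 was at 0.0471 CPM, a single count, in wild-type replicate 2 and at 0 in the other 3 wild-type libraries. age-1 was at 104.0 CPM in wild-type replicate 1 and at 91.97 to 92.15 CPM in the other 3. The a transcript of hsp-25 held 0.382% of its gene's TPM in wild-type replicate 3 and 0.760% to 0.819% in the other 3. In the same library, the b transcript of hsp-12.1 held 100.0% and its a transcript 0.0% of the TPM, against 0.0% and 100.0% in the others, on 11 counts. The hsp-16.48 value of atf-6 replicate 3 was not among the flagged values. Its gap, from 6.75 CPM to 2.13 CPM in atf-6 replicate 1, took most of the atf-6 range but fell short of that critical value.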

How the results depend on the processing

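The hsp-43 log2 fold change stayed positive, from 0.30 to 0.35, in all 19 alternatives. It passed with RLE and upper-quartile scaling, at least 10 counts in 4 libraries, limma-voom, DESeq2 (adjusted p = 0.000625) and 1 surrogate variable (0.000323, estimated from the same libraries and so possibly too small). It missed with no low-count filter (adjusted p = 0.0524), plain sums of transcript reads (0.0687), at a threshold of 0.01 and in TPM; the count of members called was then 0 in place of 1, except in TPM, where only members were tested. Leaving out 1 library gave 0 to 1 members called. Over all genes, 101 were called by the fit reported, 39 with plain sums, 187 with DESeq2, 326 with 1 surrogate variable, 15 at a threshold of 0.01 and 16 to 107 with 1 library left out. Deviations of same-numbered libraries correlated from -0.407 to 0.043 over 4 pairs. These values do not settle whether replicate numbers mark pairs of samples. With the replicate block, 0 members and 4 genes in all were called, hsp-43 having an adjusted p of 0.354.

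Signs near 0 were unstable. hsp-25 turned positive without wild-type replicate 3 (0.1254) or atf-6 replicates 3 (0.0386) or 4 (0.0049), and with 1 surrogate variable (0.0515); with 1 library left out it ranged from -0.1296 to 0.1254. hsp-12.1 turned negative without wild-type replicate 3 (-0.0299) or atf-6 replicate 3 (-0.0327; range -0.0327 to 0.2924), hsp-12.2 without wild-type replicate 1 (-0.0397) or atf-6 replicate 1 (-0.0359; range -0.0397 to 0.1997), and hsp-12.6 without wild-type replicate 1 (-0.0313; range -0.0313 to 0.1764). The cause was not tested. hsp-17, hsp-12.3, hsp-16.48 and sip-1 kept their sign and did not pass in any alternative. hsp-16.2 was not tested in the fits whose filter removed it. For hsp-16.2, hsp-12.6 and hsp-12.1, counts of 3 to 32 per library limit what can be seen.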
